A study of Mus musculus with 8 samples.

Results

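SNARE proteins and the factors that bind or recycle them were examined in conventional dendritic cells (cDCs) sorted from mouse spleen. The set was taken by gene name: the numbered syntaxins (Stx), syntaxin-binding proteins (Stxbp) and VAMPs, Vti1a and Vti1b, the Sec22 genes, Snap23, Snap29, Snap47, Ykt6, Bet1, Bet1l, Gosr1, Gosr2, Nsf, Napa and Napg. It held 45 of the 31053 genes counted. The 4 CKO libraries carry the names D146, D149, D163 and D169, and they were set against 4 wild-type (WT) libraries, D142, D150, D154 and D164. All 8 came from spleen dendritic cells, enriched to about 20%, cultured with 100 nM CpG-B, a synthetic DNA ligand of Toll-like receptor 9, for 9 h, and sorted for MHC class II and CD11c without lineage markers. No unstimulated cells were included, so the genotypes are compared in the activated state alone. The sources used here do not spell out CKO, and they give neither the gene it refers to, nor a Cre driver, strain, age or sex. Separate animals for the separate libraries are not stated either, and the p-values then reflect only the spread between these libraries, some of which may be technical. In such bulk samples, fewer cells of a type and less RNA per cell cannot be told apart.

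Membrane fusion inside cells is driven by SNAREs, small proteins whose helices zip together across 2 membranes. A complex is built from a Qa, a Qb and a Qc helix on one membrane and an R helix on the other; SNAP25-like proteins carry the Qb and Qc helices in one chain. Sec1/Munc18 proteins, several of them named as syntaxin-binding proteins, guide assembly, and the ATPase NSF with its SNAP adaptors pulls spent complexes apart for reuse. In dendritic cells and macrophages these proteins move cytokines to the surface, recycle receptors, and join endosomes with phagosomes and lysosomes.

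Counts assigned to genes ranged from 25304765 to 40950088 per library. The 6 conventional dendritic cell markers summed to 23326 to 35903 CPM (counts relative to the scaled library total) in CKO and 29149 to 41363 CPM in WT. Ccr7 was highest among them, and Itgax, which encodes the sort marker CD11c, lowest, at 6.23 to 10.5 CPM in CKO and 5.79 to 9.33 CPM in WT. The cDC1 markers summed to 2645 to 3712 CPM in CKO and 3250.1 to 3877 CPM in WT, with Irf8 at 2438 to 3496 CPM in CKO and 3042 to 3643 CPM in WT, while Xcr1 and Clec9a were at or below 1.70 CPM in CKO and 1.09 CPM in WT. The cDC2 markers summed to 219.7 to 349 CPM in CKO and 157 to 294 CPM in WT, most of it Irf4 and Sirpa, while Clec10a was at 0 in all 4 CKO libraries and at most 0.059 CPM in WT. All 7 B cell markers were detected, and they summed to 26.7 to 120.1 CPM in CKO and 25.1 to 49.6 CPM in WT, with D149 the lowest CKO library. Markers of plasmacytoid dendritic cells summed to 503 to 732 CPM in CKO and 677 to 1014 CPM in WT, macrophage and monocyte markers to 38.0 to 87.3 CPM in CKO and 59.2 to 72.2 CPM in WT, and the neutrophil markers Ly6g, Mpo and Elane were at 0. T cell markers summed to 32.0 to 69.8 CPM in CKO and 22.3 to 44.5 CPM in WT, NK cell markers to 100.5 to 287 CPM in CKO and 134 to 248 CPM in WT, and erythroid and platelet markers to 5.22 to 73.2 CPM in CKO and 50.8 to 168 CPM in WT. Of 57 marker genes, Trac, Cd3g and Ly6d were higher in every CKO library than in every WT library (7.85% of all genes tested were). Alas2, Klrd1 and Bst2 were lower in the same way (8.09% of all genes tested were), Alas2 at 0.137 to 1.63 CPM in CKO and 3.09 to 8.19 CPM in WT. The part of these in the results was not tested, except for the B cell and cDC subset markers, which were entered as covariates. The first principal component, with 36.0% of the variance, put all CKO libraries on the opposite side from all WT libraries, and the second, with 19.0%, set CKO D149 apart. Of 11702 genes with enough counts to test, 8.87% were called different between the genotypes, 4.30% higher and 4.57% lower in CKO (edgeR's quasi-likelihood test, adjusted p at most 0.05). Of these calls 48.5% were in the higher direction. With total-count scaling 9.23% of genes were higher and 2.66% lower, so that 77.6% of calls were in the higher direction, and the median log2 fold change of all genes was 0.19 instead of 0.03.

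Of the 45 genes, 40 passed the count filter, and 5 of the 40 (12.5%) differed at an adjusted p of 0.05, against the 8.87% of all genes. Bet1l, Vamp3, Stx8 and Ykt6 were lower in CKO and Nsf was higher. At an unadjusted p under 0.05 the set had 7 of 40, against 28.6% of all genes, the other 2 being Snap29 and Gosr1. In 6 of the 40 genes (15.0%) the CKO libraries did not overlap the WT libraries, against 15.9% of all genes tested; 1 was higher (7.85% of all genes were) and 5 were lower (8.09% of all genes were). Over both directions together, the shares without overlap and at the unadjusted p were below those of all genes. By direction, the share without overlap was below that of all genes for higher and above it for lower. With other tests, DESeq2 called 5 of the 40 (12.5%), against 17.2% of all genes. Of the set, limma-voom called 5 (10.1% of all genes), and with library quality weights 9 (29.7%). Of its fold changes 28 of 40 were negative (70.0%), against 47.0% of all genes, and its median log2 fold change was -0.10 against 0.03. With total-count scaling the medians were 0.06 for the set and 0.19 for all genes, so the sign of the set's median flipped while its distance from all genes was -0.13 and -0.14. That distance was -0.07 with the B cell markers as covariate and -0.20 with trends in GC content and gene length removed. It ran from -0.09 to -0.17 with 1 library left out. Among the 35 tested genes that did not pass, the largest log2 difference was 0.39 in size and the median 0.13, close to the median standard error of 0.14.

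The calls are given here by class, with no test of a difference between classes; 8.87% of all genes were called. Of 4 Qc SNAREs 2 were lower (median log2 fold change -0.31), of 11 R-SNAREs and Sec22 relatives 2 were lower (median -0.12), and of 3 disassembly factors 1 was higher (median 0.04). None of 10 Qa syntaxins (median -0.08), 4 Qb SNAREs (0.03), 3 SNAP25-like proteins (-0.16) or 5 syntaxin-binding proteins (-0.07) was called. With total-count scaling the medians of the Qa (0.08), SNAP25-like (0.0049), R (0.04) and syntaxin-binding (0.09) classes turned positive.

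**Figure D1:**
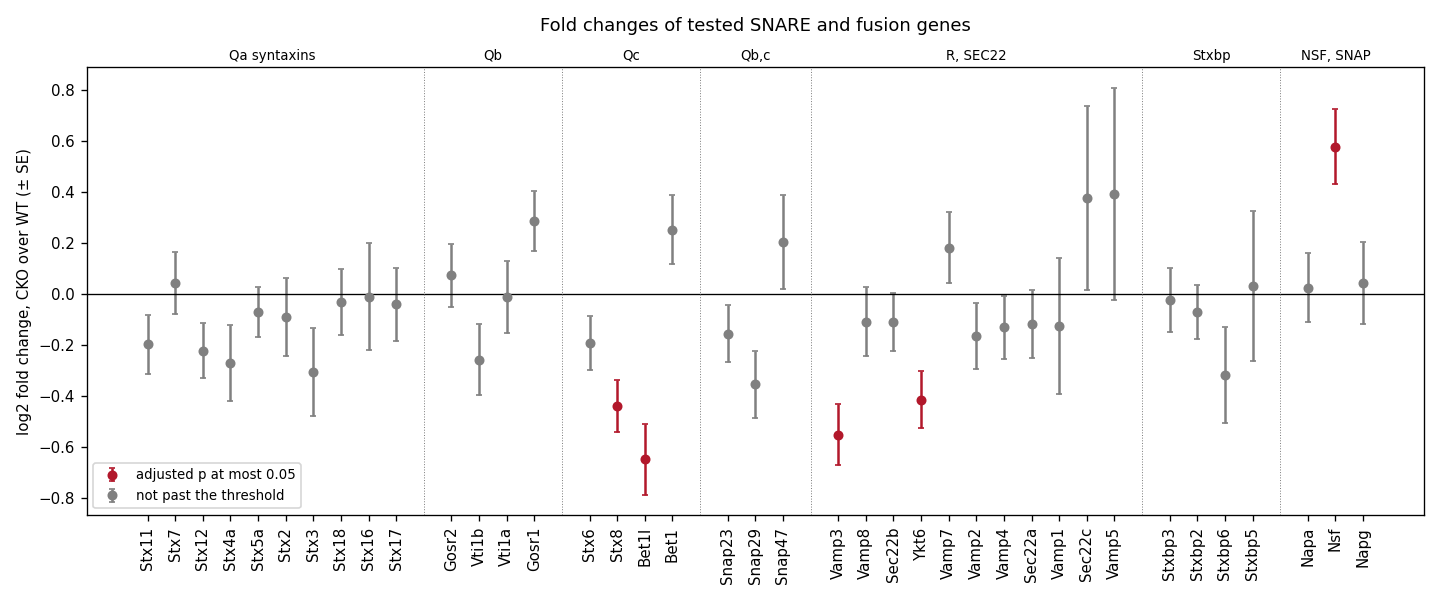
Log2 fold change, CKO over WT, of tested genes (y axis, error bars are the SE) grouped by SNARE class and ordered within a class by level (x axis). Red points passed an adjusted p of 0.05: Stx8, Bet1l, Vamp3 and Ykt6 lie below 0 and Nsf lies above 0; grey points did not pass.

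The levels themselves were nearly the same ladder in both genotypes. On the scale of CPM per kb of gene length, the rank correlation of the 40 mean levels between CKO and WT was 0.99 (Spearman, across genes, as a description). Stx11 was the most abundant, at 206 CPM per kb in CKO and 236 CPM per kb in WT. It encodes a syntaxin without a transmembrane segment that is required in humans for granule release by cytotoxic lymphocytes. Next came Stxbp3 (Munc18c, the partner of syntaxin 4) at 139 CPM per kb in CKO and 141 in WT, Gosr2 (membrin, of the ER-to-Golgi step) at 102 and 96.9, Stx7 (late endosomes) at 97.7 and 94.8, and Vti1b (endosomal Qb SNARE) at 72.8 and 87.0, each given for CKO and then WT. Vamp3 stood at 53.0 CPM per kb in CKO and 77.7 in WT, Vamp8 at 57.4 in CKO and 61.8 in WT, and Stxbp2 (Munc18-2, the partner of syntaxin 11) at 46.3 in CKO and 48.7 in WT. Single genes made up large shares of their class. Stx11 made up 47.6% to 50.4% of the summed Qa level per kb in CKO and 49.7% to 53.2% in WT, Snap23 71.1% to 75.3% of the SNAP25-like level in CKO and 71.2% to 74.3% in WT, and Stx6 52.8% to 56.1% of the Qc level in CKO and 50.7% to 54.0% in WT.

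**Figure D2:**
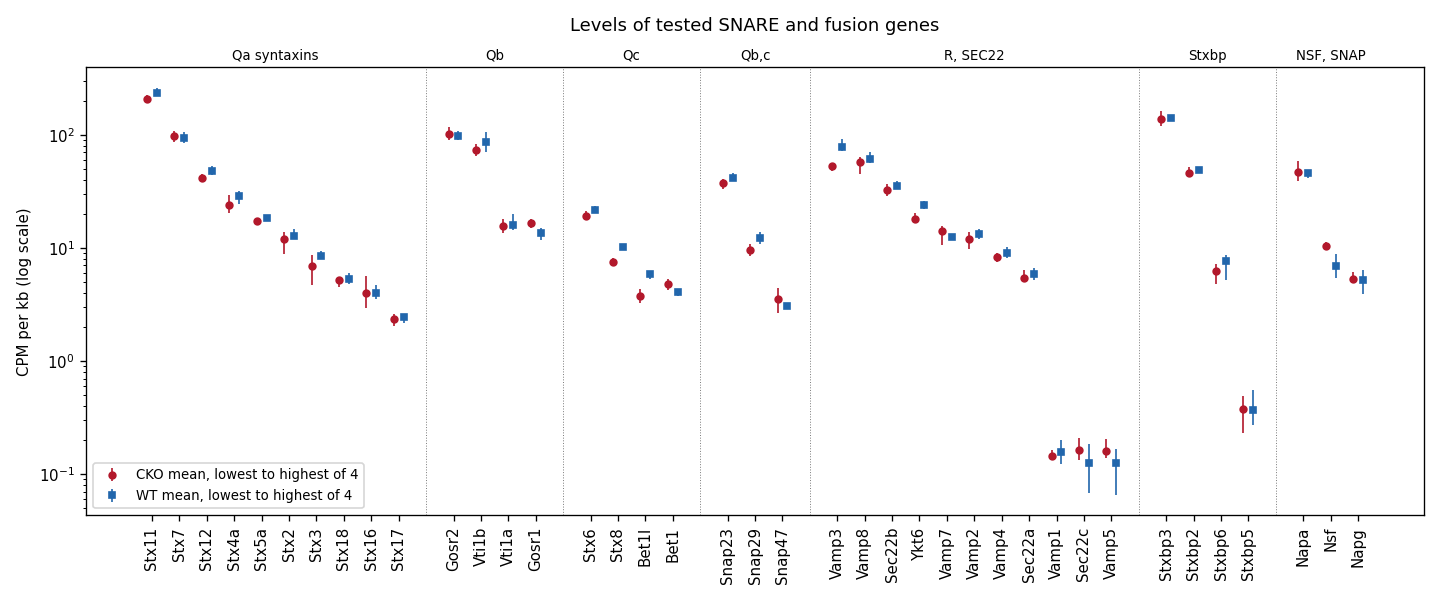
Level in CPM per kb of gene length (log axis) of tested genes, by class; red circles are CKO and blue squares WT means, with bars from the lowest to the highest of 4 libraries. Levels ran from 206 (CKO) and 236 (WT) CPM per kb for Stx11 to 0.145 for Vamp1 in CKO and 0.125 for Vamp5 in WT. The bars of the genotypes overlap for most genes.

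Among the 5 genes that did not pass the filter were Stx1a, Stx19, Stxbp4 and Stxbp5l. Stx1a, the syntaxin of synapses, had 2 to 15 counts per library in CKO and 5 to 17 in WT. Stxbp4 had 7 to 17 counts in CKO and 2 to 13 in WT, and Stx19 had 0 to 2 in CKO and 1 to 2 in WT. Stxbp5l had no count in any library, where 3 counts, the limit that a count of 0 allows for counting error, would be 0.0762 to 0.124 CPM. Vamp5 and Vamp8 lie 4754 bases apart on chromosome 6 on the same strand, yet Vamp5 stood at 0.162 CPM per kb in CKO and 0.125 in WT, against the Vamp8 levels above.

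In the intra-Golgi complex, made of syntaxin 5, GS28 (Gosr1), GS15 (Bet1l) and Ykt6, 2 of the 4 subunits were lower in CKO. Of all genes 4.57% were lower. This complex and those below were singled out with the calls known, so their counts cannot show an excess over that share. Bet1l, the Qc SNARE of that complex (chromosome 7, 140853394 to 140857577, mm10), had 17.2, 13.9, 12.9 and 15.5 CPM in CKO D146, D149, D163 and D169, against 21.1, 24.2, 24.3 and 23.7 CPM in WT D142, D150, D154 and D164. Every CKO library lay below every WT library. Bet1l averaged 14.9 ± 1.90 CPM in CKO and 23.3 ± 1.52 CPM in WT (SD, n = 4 each), a log2 fold change of -0.65 ± 0.14 (SE, edgeR adjusted p = 0.0234). Exons of Bet1l overlap those of Ric8a on the opposite strand, and the strand setting of the counting is not given; Ric8a stood at 120.2 ± 3.74 CPM in CKO and 139 ± 7.22 CPM in WT, a log2 fold change of -0.21 ± 0.10 that did not pass.

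Ykt6, the R-SNARE of the same complex, which is held to membranes by lipid and also takes part in autophagosome fusion, lies on chromosome 11, 5955693 to 5967780. It had 60.8, 54.4, 51.3 and 49.5 CPM in CKO D146, D149, D163 and D169, against 70.7, 78.0, 73.4 and 65.9 CPM in WT D142, D150, D154 and D164. The groups did not overlap, with CKO D146 and WT D164 nearest to each other. The log2 fold change of Ykt6 was -0.41 ± 0.11 (SE, edgeR adjusted p = 0.0440). The Qb subunit Gosr1 had 64.8, 74.9, 70.6 and 76.7 CPM in CKO, against 50.4, 61.0, 58.8 and 64.9 CPM in WT, in the same library order. CKO D146 lay just below WT D164, and the log2 fold change of 0.29 ± 0.12 did not pass (edgeR adjusted p = 0.132). Stx5a, the Qa subunit, stood at 101 ± 5.01 CPM in CKO and 106 ± 2.12 CPM in WT, and its log2 fold change of -0.07 ± 0.10 did not pass.

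The ER-to-Golgi complex shares syntaxin 5 but uses Gosr2, Bet1 and Sec22b, and none of these 3 passed. Bet1, the close relative of Bet1l, stood at 18.1 ± 1.70 CPM in CKO and 15.2 ± 1.05 CPM in WT (log2 fold change 0.25 ± 0.14). Sec22b, an R-SNARE that has been studied for its part in bringing ER proteins to phagosomes in dendritic cells, stood at 130.0 ± 12.8 CPM in CKO and 140.2 ± 9.36 CPM in WT (-0.11 ± 0.11). Gosr2 stood at 333 ± 40.9 CPM in CKO and 317 ± 27.2 CPM in WT (0.07 ± 0.12).

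**Figure D3:**
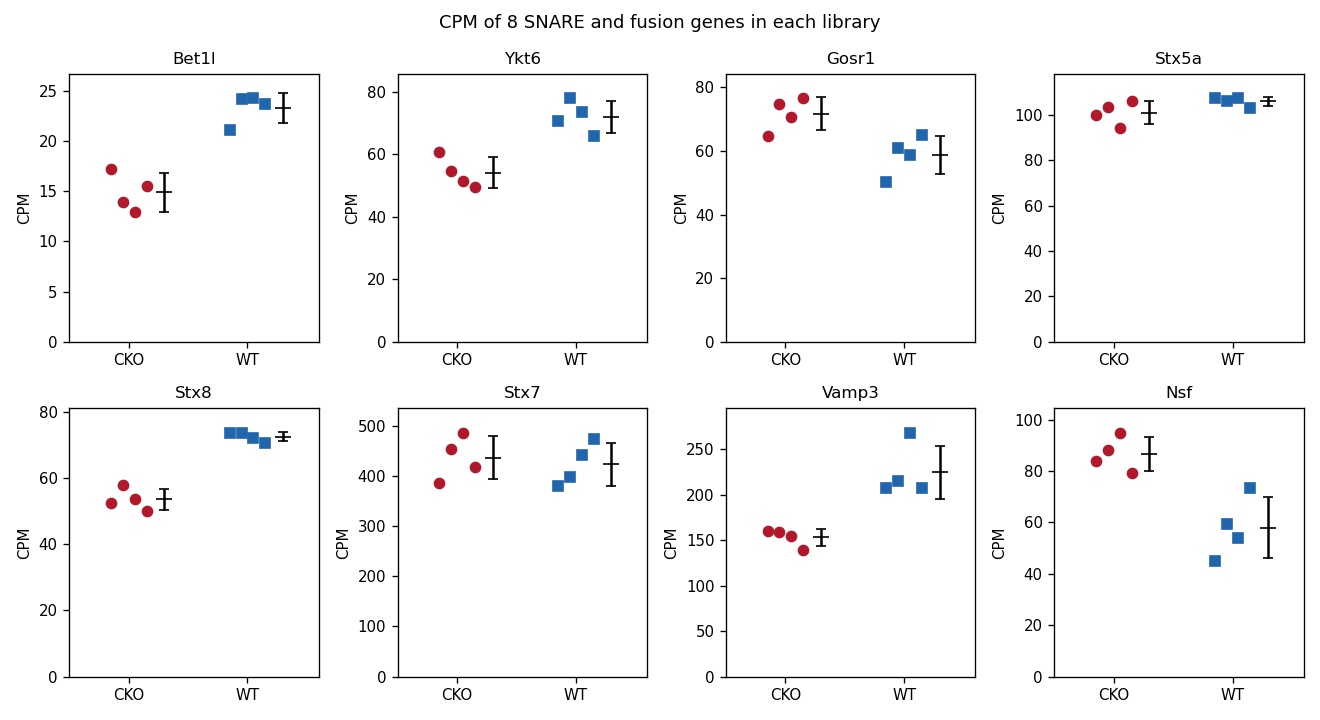
CPM in each library for 8 genes, with CKO (red circles) left of WT (blue squares) and the mean ± SD (n = 4) beside each group. Bet1l, Ykt6, Stx8 and Vamp3 are lower and Nsf is higher in every CKO library than in every WT library, while Gosr1, Stx5a and Stx7 overlap.

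Ratios between partners within a library do not depend on how libraries are scaled. Trends with GC content or gene length remain in them where partners differ, as Bet1l (54.3% GC) and Bet1 (36.6%) do, and their part was not tested. The pairs were picked after the values were seen and are given without a test. The ratio of Bet1l to Bet1 (CPM per kb) was 0.653 to 1.03 in CKO and 1.27 to 1.61 in WT. The ratio of Bet1l to Gosr1 was 0.198 to 0.289 in CKO and 0.396 to 0.453 in WT. That of Ykt6 to Stx5a was 0.909 to 1.18 in CKO and 1.25 to 1.43 in WT. In all 3, each with a gene called lower over a gene that was not called, the groups were apart, and Ykt6 to Sec22b overlapped at 0.455 to 0.706 in CKO and 0.634 to 0.771 in WT.

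Among the late endosomal SNAREs, syntaxin 7, Vti1b, syntaxin 8 and VAMP8 form the complex that joins late endosomes, and of the 4 only Stx8 passed. Stx8, its Qc member (chromosome 11, 67966193 to 68207148), had 52.5, 58.0, 53.6 and 50.2 CPM in CKO D146, D149, D163 and D169, against 73.7, 73.6, 72.2 and 70.7 CPM in WT D142, D150, D154 and D164. Both groups were tight and did not overlap, and the log2 fold change was -0.44 ± 0.10 (SE, edgeR adjusted p = 0.0282). Stx7 stood at 437 ± 43.2 CPM in CKO and 424 ± 43.1 CPM in WT, Vti1b at 117 ± 12.9 CPM in CKO and 140.3 ± 22.9 CPM in WT, and Vamp8 at 133 ± 20.1 CPM in CKO and 143 ± 14.7 CPM in WT. Their log2 fold changes were 0.04 ± 0.12, -0.26 ± 0.14 and -0.11 ± 0.14. The ratio of Stx8 to Stx7 was 0.0690 to 0.0850 in CKO and 0.0933 to 0.122 in WT, with no overlap, while the ratios of Stx8 to Vti1b and to Vamp8 overlapped. Vamp7, the R-SNARE of lysosome exocytosis, stood at 35.8 ± 5.93 CPM in CKO and 31.5 ± 1.27 CPM in WT and did not pass.

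Vamp3 (cellubrevin), the R-SNARE of recycling endosomes that in mouse macrophages carries TNF to the surface with syntaxin 4 and SNAP23, was the most abundant gene of the 5 that passed. It lies on chromosome 4, 151047300 to 151057963. Vamp3 had 159.9, 159, 155 and 139 CPM in CKO D146, D149, D163 and D169, against 207, 215, 268 and 207 CPM in WT D142, D150, D154 and D164. No library overlapped, and WT D154 stood well above the other WT libraries. Its log2 fold change was -0.55 ± 0.12 (SE, edgeR adjusted p = 0.0244), and -0.46 without WT D154, where the adjusted p was 0.0764.

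The plasma membrane partners of Vamp3 did not pass. Snap23, the SNAP25-like protein outside neurons, stood at 161 ± 13.9 CPM in CKO and 179 ± 13.5 CPM in WT (log2 fold change -0.16 ± 0.11). Stx4a, the main Qa SNARE of the plasma membrane, stood at 56.3 ± 10.2 CPM in CKO and 67.9 ± 8.55 CPM in WT (-0.27 ± 0.15), and Stx3 at 39.4 ± 9.80 CPM in CKO and 48.6 ± 3.66 CPM in WT (-0.31 ± 0.17). Stx6 and Stx12, Qc and Qa SNAREs of the trans-Golgi and recycling endosomes, had log2 fold changes of -0.19 ± 0.11 and -0.22 ± 0.11, neither past the threshold. The ratios of Vamp3 to Snap23, to Stx4a and to Vamp8 overlapped between the genotypes. Snap29, which pairs with syntaxin 17 on autophagosomes, had 35.2, 37.7, 29.6 and 30.5 CPM in CKO, against 44.2, 48.2, 39.6 and 37.7 CPM in WT, in the same library order. The groups did not overlap, but CKO D149 and WT D164 were equal at this rounding, and Snap29 did not pass (log2 fold change -0.35 ± 0.13, edgeR adjusted p = 0.107). Exons of Snap29 overlap those of Pi4ka on the opposite strand, which stood at 19.0 ± 4.62 CPM in CKO and 13.7 ± 4.29 CPM in WT.

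Nsf was the 1 gene higher in CKO (chromosome 11, 103821782 to 103954056). It had 84.1, 88.2, 94.9 and 79.4 CPM in CKO D146, D149, D163 and D169, against 45.1, 59.5, 54.1 and 73.3 CPM in WT D142, D150, D154 and D164. The groups did not overlap, although the WT libraries were spread widely, with a coefficient of variation of 20.4% against 7.61% in CKO. Nsf averaged 86.7 ± 6.59 CPM in CKO and 58.0 ± 11.8 CPM in WT, a log2 fold change of 0.58 ± 0.15 (SE, edgeR adjusted p = 0.0360). Its adaptors did not pass: Napa (alpha-SNAP) stood at 178 ± 31.4 CPM in CKO and 175 ± 13.3 CPM in WT, and Napg (gamma-SNAP) at 27.4 ± 2.78 CPM in CKO and 26.6 ± 5.32 CPM in WT. Their log2 fold changes were 0.03 ± 0.14 and 0.04 ± 0.16. The ratio of Nsf to Napg was 1.86 to 2.15 in CKO and 1.28 to 1.39 in WT, with no overlap, and the ratio of Nsf to Napa, at 0.162 to 0.269 in CKO and 0.110 to 0.209 in WT, overlapped. Gosr2 is the next SNARE gene to Nsf, 123883 bases away on the same strand, and it did not pass.

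**Figure D4:**
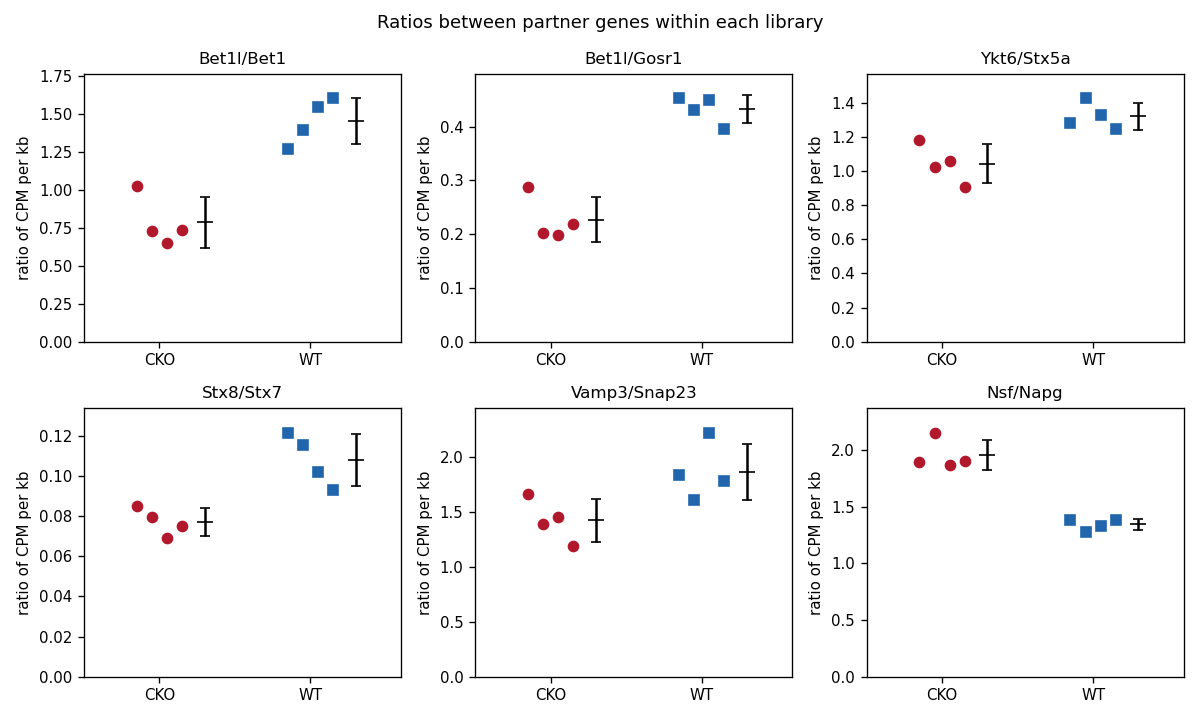
Ratio of CPM per kb between 2 partner genes within each library, CKO (red circles) left of WT (blue squares), with the mean ± SD (n = 4). The groups are apart for Bet1l/Bet1, Bet1l/Gosr1, Ykt6/Stx5a, Stx8/Stx7 and Nsf/Napg, and they overlap for Vamp3/Snap23.

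The syntaxin-binding proteins gave no call among 5 tested in edgeR. Stxbp3 stood at 740.2 ± 106 CPM in CKO and 753 ± 9.10 CPM in WT, and Stxbp2 at 193 ± 16.3 CPM in CKO and 202 ± 9.00 CPM in WT. Stxbp6 (amisyn) and Stxbp5 (tomosyn) had log2 fold changes of -0.32 ± 0.19 and 0.03 ± 0.29. The Qa syntaxins gave none of 10, led by Stx11 at 866 ± 63.3 CPM in CKO and 992 ± 78.3 CPM in WT (-0.20 ± 0.12, edgeR adjusted p = 0.288). Over the 4 classes without a call in edgeR (Qa, Qb, SNAP25-like and syntaxin-binding), 22 genes were tested; 2 of them had an unadjusted p under 0.05, DESeq2 (17.2% of all genes called) and limma-voom (10.1%) called 0, and limma-voom with library quality weights (29.7%) called 4. The remaining R-SNAREs (Vamp1, Vamp2, Vamp4 and Vamp5) and the Sec22 relatives Sec22a and Sec22c had log2 fold changes between -0.16 and 0.39, none past the threshold.

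**Figure D5:**
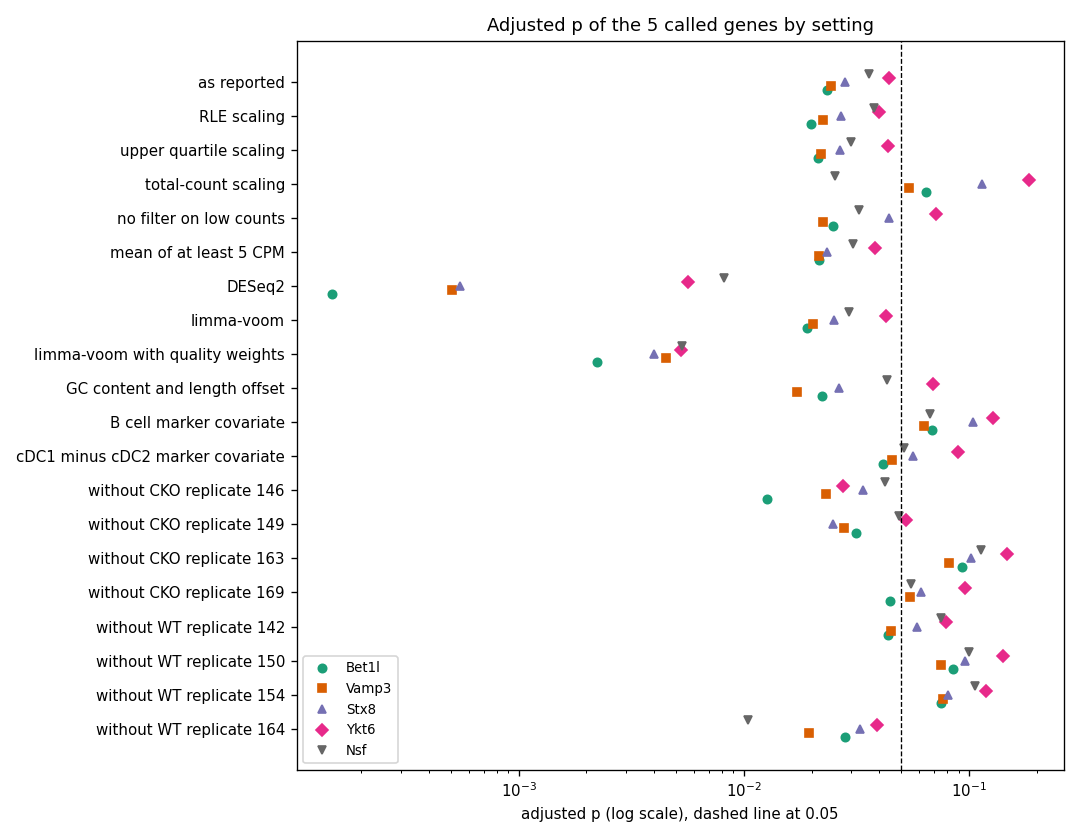
Adjusted p (log axis) of the 5 genes that passed, under the reported fit and 19 alternative fits, with a dashed line at 0.05. All 5 lie left of the line with RLE or upper quartile scaling, the 5 CPM filter, DESeq2 and limma-voom, plain or with quality weights. They do so too without CKO D146 or without WT D164. All 5 lie right of it without CKO D163, WT D150 or WT D154 and with the B cell marker covariate.

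These 5 calls sat near the threshold in the reported fit. All 5 were also called with RLE (9.08% of all genes called) or upper quartile scaling (9.58%) and with a 5 CPM filter (12.6%). The same held in DESeq2 (17.2%) and in limma-voom, plain (10.1%) or with quality weights (29.7%). Without the count filter (5.39%) Ykt6 was not called. With the level of the B cell markers in the model, 3.05% of all genes were called. There the log2 fold changes of the 5 genes ran from -0.66 for Bet1l to 0.69 for Nsf. None of the 5 was called (edgeR adjusted p from 0.0634 to 0.128). None was called without CKO D163, WT D150 or WT D154 either, fits in which 0.592%, 0.690% and 1.16% of all genes were called. Without CKO D146 (11.1% of all genes called) and without WT D164 (12.4%) all 5 were called, and without CKO D149, the library apart on the second component (11.2%), 4 were. Without CKO D169 (3.86%) 1 was called, without WT D142 (2.92%) 2 were, and with the cDC1 minus cDC2 marker covariate (5.33%) 2 were. With total-count scaling Nsf and Gosr1 were called higher (9.23% of all genes were) and none lower (2.66% of all genes were). The log2 fold changes of Bet1l, Vamp3, Stx8 and Ykt6 were then -0.49, -0.39, -0.28 and -0.25. Log2 fold changes followed transcript GC content and gene length over all genes (Spearman -0.30 and 0.27, across 11689 genes) against -0.16 and 0.14 across 39 genes of the set, given as a description; with each library's own trend removed (9.25% of all genes called), Nsf, Bet1l, Vamp3 and Stx8 were still called and Ykt6 was not (adjusted p = 0.0695).

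The promoters of the genes that passed were read from RefSeq (GRCm38.p6), where 39 of the 45 genes matched, to see whether those that fell together share short motifs near their start. Shown are the 250 bases upstream of the RefSeq start of 4 of the 5, 5′ to 3′ on the gene's strand, with matches to the motifs searched in capitals. Vamp3, also lower in CKO, was not among the matched genes and has no window here. The span that the count table gives the gene holds all 250 bases of the Bet1l and Stx8 windows, 65 bases of the Ykt6 window and 0 of the Nsf window.
Bet1l, chr7:140856384-140856633, minus strand: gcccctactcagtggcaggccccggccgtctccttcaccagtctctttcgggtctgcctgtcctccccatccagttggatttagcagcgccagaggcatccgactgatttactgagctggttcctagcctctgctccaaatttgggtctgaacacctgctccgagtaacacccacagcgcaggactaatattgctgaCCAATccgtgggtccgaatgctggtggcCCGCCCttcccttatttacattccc
Ykt6, chr11:5955508-5955757, plus strand: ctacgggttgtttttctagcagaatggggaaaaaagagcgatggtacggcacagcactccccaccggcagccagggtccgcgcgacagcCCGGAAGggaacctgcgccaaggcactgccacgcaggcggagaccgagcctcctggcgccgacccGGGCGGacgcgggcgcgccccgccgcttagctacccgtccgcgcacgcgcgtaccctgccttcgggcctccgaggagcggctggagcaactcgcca
Stx8, chr11:67966208-67966457, plus strand: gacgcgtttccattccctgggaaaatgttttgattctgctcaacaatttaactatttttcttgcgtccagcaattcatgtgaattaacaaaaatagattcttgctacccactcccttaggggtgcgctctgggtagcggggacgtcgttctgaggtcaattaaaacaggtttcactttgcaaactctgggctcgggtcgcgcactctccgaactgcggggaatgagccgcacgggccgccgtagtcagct
Nsf, chr11:103954057-103954306, minus strand: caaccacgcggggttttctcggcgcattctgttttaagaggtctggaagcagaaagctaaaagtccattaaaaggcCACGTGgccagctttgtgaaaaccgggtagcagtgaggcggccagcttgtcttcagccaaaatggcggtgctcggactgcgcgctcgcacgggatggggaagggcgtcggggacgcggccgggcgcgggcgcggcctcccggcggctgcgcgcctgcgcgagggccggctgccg

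Motifs were searched on both strands: the CCAAT box (CCAAT), GC box (GGGCGG), an ETS core (CCGGAAG), E-box (CACGTG), CRE (TGACGTCA), AP-1 (TGANTCA), a form of the NF-κB site and an interferon response core. Bet1l had 1 CCAAT box and 1 GC box, Ykt6 1 GC box and 1 ETS core, Nsf 1 E-box and Stx8 no match, so no motif was common to the 3 shown that were lower in CKO. Over the 45 windows of the 39 genes, 57.8% held a GC box and 42.2% a CCAAT box, against 32.7% and 33.9% of all 32851 windows of this length. An E-box was in 13.3% of the set's windows against 6.02% of all, an ETS core in 6.67% against 6.91%, a CRE in 4.44% against 1.55%, AP-1 in 4.44% against 6.75%, the interferon core in 4.44% against 2.98%, and the NF-κB form in 0 against 0.356%. The set's windows were richer in G and C, with a median of 60.8% against 52.4%. These are matches of letters in windows and not sites.

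Other genes of the fusion machinery, from lists of 92, gave 1 higher and 1 lower among 72 tested, against 4.30% higher and 4.57% lower of all genes. Both belong to TRAPP, the complex that tethers vesicles at the Golgi: Trappc8 was higher, at 61.4 ± 7.47 CPM in CKO and 34.0 ± 9.90 CPM in WT (log2 fold change 0.85 ± 0.19, edgeR adjusted p = 0.0255), and Trappc5 was lower, at 24.4 ± 3.13 CPM in CKO and 34.1 ± 2.14 CPM in WT (-0.48 ± 0.13, adjusted p = 0.0430). The other lists (SNAREs and a SNAP adaptor not named above, SM proteins and regulators, exocyst, COG, GARP and EARP, NRZ, golgins and endosomal tethers) gave 0 of 59 in edgeR, against 8.87% of all genes. Of the 59, 16 had an unadjusted p under 0.05 (28.6% of all genes), 8 were called in DESeq2 (17.2%), 1 in limma-voom (10.1%) and 18 in limma-voom with quality weights (29.7%). All 8 exocyst subunits, which tether vesicles at the plasma membrane, had positive log2 fold changes, with a median of 0.33, and 12 of 13 golgins and endosomal tethers did, with a median of 0.20. All 3 NRZ genes, which tether vesicles at the ER, were positive too, with a median of 0.57. The remaining tether lists differed from these: TRAPP had 4 of 13 positive (median -0.11), COG 4 of 8 (0.03), and GARP and EARP 2 of 5 (-0.0069). Over all genes 53.0% of fold changes were positive, with a median of 0.03. With each library's GC and length trend removed the exocyst had 6 of 8 positive and a median of 0.13, the golgins 11 of 13 and 0.19, and NRZ 2 of 3 and 0.41.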

How the data were processed

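Sorted spleen cDCs were profiled by RNA-seq in 4 CKO and 4 WT libraries. Per the labels' protocols, polyA RNA was copied with a SMART-Seq low-input kit, an amplification that can tie a library's counts to GC content and gene length. HISAT2 2.2.1, fastp 0.23.2 and the mm10 genome were used per the submitters' processing notes; strand setting, annotation and counting program were not given in the sources used here. Deposited by the authors were raw whole-number counts per gene, not normalized, with gene position and length per the file headers. All columns of counts were used. No library was a copy of another (chi-square per degree of freedom of at least 43.1 in all pairs).

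From these counts, edgeR 4.0.16 in R 4.3.3 was run on all genes (filterByExpr by genotype, TMM, robust quasi-likelihood F test, two-sided, Benjamini-Hochberg over 11702 genes, threshold 0.05), and only the rows of the set are reported. Fold changes are CKO over WT. Each SE was obtained as the log2 fold change, without its sign, over the root of F. CPM are TMM-normalised, and CPM per kb divides by the gene length in the table. Exon overlaps and GC content came from GENCODE M21, whose coordinates were identical for 44 of the 45 genes. The test was checked on simulated data with known changes, all larger than those of the SNARE genes called, so the check does not cover changes of their size.

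The genes, lists and alternatives were chosen with earlier results of these data known. Genes named were those past the threshold, those with an unadjusted p under 0.05, the 8 highest per kb and 13 genes with described roles in dendritic cells or macrophages; further members are named by class. Alternatives were scaling by RLE, upper quartile or total count, dropping the count filter or asking for 5 CPM on average, DESeq2 1.42.0, limma-voom (limma 3.58.1), plain or with library quality weights, a GC and length offset (GC known for 99.9% of genes tested), B cell or cDC1 minus cDC2 marker covariates, and leaving out each library. Values of some genes of the set enter the counts and medians but are not reported here.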

Additional observations from a re-analysis of the deposited data

Results flagged for a closer look

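Vamp3 in WT D154, at 268 CPM, stood apart from the other 3 WT libraries, at 207 to 215 CPM. Sec22b in WT D154, at 154.2 CPM, also stood apart from the other 3, at 134.7 to 136.3 CPM. In both, the gap to the next library over the whole range of the group, 0.872 for Vamp3 and 0.919 for Sec22b, was above Dixon's 95% critical value for 4 values. These were 2 of 42 groups of 4 screened, and chance gives about 1 in 20.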

How the results depend on the processing

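The count of genes changed in the whole table, 1038, was 2012 with DESeq2, 3475 with limma-voom and quality weights, 357 with the B cell marker covariate, 624 with the cDC1 minus cDC2 covariate, and 70 to 1468 when 1 library was left out (70 without CKO D163, 82 without WT D150, 138 without WT D154, 347 without WT D142, 457 without CKO D169). The SNARE set's count of 1 higher was 2 with total-count scaling, 0 with either covariate, and 0 to 1 with 1 library left out. Of all genes, 4.30% were called higher in the reported fit and 9.23% with total-count scaling. With the B cell covariate 1.97% were, with the cDC1 minus cDC2 covariate 2.33%, and with 1 library left out 0.177% to 7.75%. Its count of 4 lower was 0 with total-count scaling, 8 with limma-voom and quality weights, 0 with the B cell covariate, 2 with the cDC1 minus cDC2 covariate, and 0 to 4 with 1 library left out. The cause was not tested. Over 19 alternatives Bet1l lost its call in 5 (highest adjusted p = 0.093), Vamp3 in 6, Nsf in 7, Stx8 in 8 and Ykt6 in 11, and none of the 5 changed sign. Of the 40 tested genes 12 were positive, 26 with total-count scaling, 13 with the B cell covariate and 10 with the GC and length offset. The median log2 fold change of all genes moved too. It was 0.031 as reported, 0.19 with total-count scaling, -0.015 with the B cell covariate and 0.015 with the offset. Among the 21 genes followed singly, those that changed sign were not called: with total-count scaling Sec22b was 0.054, Snap23 0.0049, Vamp8 0.054, Stxbp2 0.094 and Stxbp3 0.13; with the GC and length offset Stx7 was -0.076 and Stxbp2 0.018; with the B cell covariate Stxbp3 was 0.091; with 1 library left out Stx7 ranged from -0.0070 (without WT D142) to 0.12, and Stxbp3 from -0.11 to 0.042 (without CKO D163; 0.040 without CKO D146). No paired analysis was possible because the genotypes share no replicate number. The effect of depth was not tested.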
